A study of Homo sapiens with 3 samples.

Results

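The Schlafen family was examined in RNA sequencing read counts from H82R cells. Its members were taken by gene symbol: SLFN5, SLFN11, SLFN12, SLFN12L, SLFN13 and SLFN14, which are 6 of the 27574 genes in the table. H82 is a long-established line of human small cell lung cancer, a neuroendocrine tumour. All 3 libraries, named here replicate 1, 2 and 3, carry the same labels: H82 cells from lung, with etoposide plus cisplatin as the treatment. Etoposide poisons type II topoisomerases and cisplatin crosslinks DNA. The labels give no dose or time of treatment, do not say what the R stands for, and name no untreated or parental sample. They form 1 group, so levels were measured and a change, including any silencing of SLFN11 relative to another state, was not. Whether separate cultures gave the libraries is not stated, so a p-value reflects the spread among these 3 samples alone, which may be technical.

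Schlafen proteins are RNA-cleaving and nucleic-acid-binding factors of vertebrates, and many of them are induced by interferon. SLFN11 binds stressed replication forks coated with the single-strand binding protein RPA, blocks their progress and cuts certain transfer RNAs. Cells that lack it tolerate topoisomerase poisons, platinum drugs and PARP inhibitors better, and in small cell lung cancer its low expression has been tied to the histone methyltransferase EZH2 and to promoter methylation.

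The 6 genes form 1 cluster on chromosome 17 of GRCh38, from 35243036 to 35558098. In order along the chromosome they are SLFN5 at chr17:35243036-35273655, SLFN11 at chr17:35350305-35373701, SLFN12 at chr17:35411060-35433283, SLFN13 at chr17:35435096-35448837, SLFN12L at chr17:35464249-35537861 and SLFN14 at chr17:35548125-35558098. SLFN5 lies on the plus strand and the others on the minus strand. In the longest annotated reading frame of each gene, SLFN12 and SLFN12L had 1734 and 1851 coding bases without the stop codon, against 2673 in SLFN5, 2703 in SLFN11, 2691 in SLFN13 and 2736 in SLFN14.

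The genes are paralogs, and reads from a shared stretch cannot be assigned to 1 of them. The longest identical coding stretch in the family was 516 bases in SLFN11 and SLFN13. Part of it is shown because a read that falls inside it could be counted for either gene, and the capitals mark 66 bases that SLFN12L holds as well. In SLFN11 it lies in exon 4 of 5 of the transcript used, at chr17:35353344-35353463, and in SLFN13 in exon 5 of 6, at chr17:35441571-35441690, both on the minus strand.
SLFN11 and SLFN13, shared: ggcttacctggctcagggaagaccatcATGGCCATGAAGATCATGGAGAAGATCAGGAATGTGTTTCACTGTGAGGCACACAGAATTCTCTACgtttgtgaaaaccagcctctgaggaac

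SLFN12 and SLFN12L held an identical coding stretch of 79 bases, at chr17:35411562-35411640 in exon 4 of 4 of SLFN12 and at chr17:35475120-35475198 in exon 5 of 5 of SLFN12L.
SLFN12 and SLFN12L, shared: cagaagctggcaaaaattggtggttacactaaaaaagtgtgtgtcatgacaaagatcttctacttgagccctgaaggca

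Over whole transcripts, 9.69% of the 50-base words of SLFN11 and 6.50% of those of SLFN13 occurred in another member. In SLFN12 and SLFN12L these shares were 1.32% and 1.75%, and in SLFN5 and SLFN14 no such word was shared with the family. Words found in no other annotated gene made up 90.3% of SLFN11, 93.0% of SLFN13, 98.7% of SLFN12, 91.5% of SLFN12L, 91.0% of SLFN14 and 99.8% of SLFN5. Much of what SLFN12L and SLFN14 shared was with antisense genes: AC015911.5 covers 7.69% of the exon bases of SLFN12L and AC015911.6 covers 12% of those of SLFN14. Most of the sequence of every member was thus particular to it by this measure. The sources used here give neither the read length nor the treatment of reads with several matches.

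H82R cells held almost no transcript of any Schlafen gene. The whole family received 7, 18 and 7 counts in replicates 1, 2 and 3, or 32 counts in all, of library totals of 25013265, 42610181 and 23868201. No member reached 10 counts in every library, the level used here to call a gene detected, whereas 53% of all genes and 69.8% of 19129 protein-coding genes did. SLFN5, SLFN12 and SLFN12L had no count in any library, as had 10.3% of the protein-coding genes. A low count cannot tell a few cells with the transcript from little transcript in every cell.

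SLFN11, the replication-fork factor, had 1 count in replicate 1 and 0 counts in replicates 2 and 3. The exact 95% Poisson interval of that single count runs from 0.0253 to 5.57 counts over the 3 libraries together, and it covers counting error only. In CPM, counts scaled to a common library size, divided by kb of exon, the level over all libraries was 0.00183 (95% interval 4.6e-05 to 0.0102). The median detected gene stood at 5.54 CPM per kb, 3034 times higher, with a counting interval of 544 to 119825 times. Of the protein-coding genes, 12.9% had 1 count or fewer in all. SLFN11 was therefore close to absent from these libraries, and even the upper bound of its count left it 544 times below a typical detected gene.

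SLFN13, a nuclease that cuts transfer and ribosomal RNA and restricts HIV, was the member with the most reads. It had 6 counts in replicate 1, 16 in replicate 2 and 7 in replicate 3, which is 90.6% of the family's counts. These correspond to 0.242, 0.374 and 0.292 CPM, or 0.303 ± 0.0671 CPM (SD, n = 3). All 3 libraries held the transcript and their intervals overlapped: an exact multinomial test against the effective library sizes, chosen after the counts were seen, did not distinguish the libraries (two-sided p = 0.68). With 29 counts that test could reveal only a large spread. A chi-square test, which the members did not enter, found spread beyond counting error in 68.7% of detected genes. All detected genes had more counts than SLFN13, so this share is no measure of how steady SLFN13 was. Over all libraries SLFN13 stood at 0.0340 CPM per kb (95% interval 0.0227 to 0.0488). The median detected gene was 163 times higher (interval 114 to 244). A share of 27.1% of the protein-coding genes had 29 counts or fewer, so SLFN13 too lay among the low genes.

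SLFN14, a ribosome-bound nuclease known from reticulocytes and platelets, had 0, 2 and 0 counts. Its level over all libraries was 0.00756 CPM per kb (95% interval 0.000916 to 0.0273), with the median detected gene 733 times higher (interval 203 to 6049). Both counts could also stem from the antisense gene that overlaps it, because it is not known whether reads were counted by strand.

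The other 3 members were at 0 throughout, and for these only a bound can be given. SLFN5, a nuclear transcriptional corepressor, has the longest exons of the family, 10709 bases, and so the tightest bound. Taking 3 counts over the 3 libraries together as what a count of 0 allows, SLFN5 was at least 1810-fold lower than the median detected gene per kb of exon. SLFN12L, a relative of SLFN12 about which less is known, was at least 813-fold lower. SLFN12, the nuclease that binds PDE3A, was at least 602-fold lower.

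Ordered by CPM per kb, the members were SLFN13, SLFN14, SLFN11 and then the 3 genes at 0. SLFN13 exceeded SLFN11 by 18.6 times per kb over all libraries (95% exact binomial interval 3.08 to 759). Against SLFN14 the ratio was 4.49 per kb (interval 1.14 to 38.8). Within single libraries the order was less firm. In replicate 1 the ratio of SLFN13 to SLFN11 was 3.85 per kb, with an interval of 0.467 to 177 that includes equal levels. In replicate 2, with 16 counts against 0, its lower bound was 2.47, and in replicate 3, with 7 counts against 0, it was 0.924. For SLFN13 against SLFN14 the lower bounds per kb were 0.365, 0.582 and 0.446 in replicates 1, 2 and 3, so that no library alone separated these genes. SLFN14 and SLFN11 were not separated by their intervals, nor was either of them separated from the 3 members at 0. Members share the stretches shown above, so the SLFN13 to SLFN11 ratio rests on how such reads were counted.

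**Figure D1:**
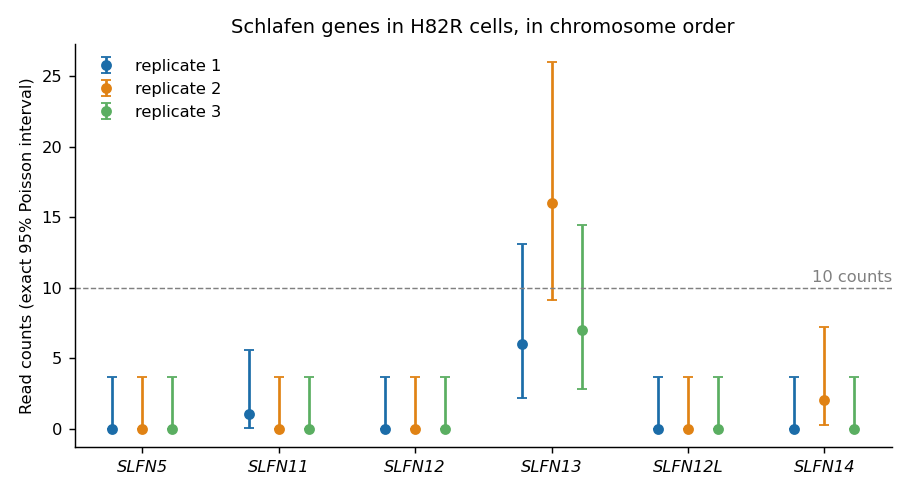
Read counts (vertical axis, linear) of the 6 Schlafen genes in chromosome order, with points for replicates 1, 2 and 3 and bars for exact 95% Poisson intervals. Only SLFN13 had counts in every library (6, 16 and 7), and no gene reached the dashed line at 10 counts in all 3.

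SLFNL1, a Schlafen-like gene on chromosome 1 outside the cluster, served as a distant relative. It had 219, 429 and 213 counts, or 2.15 ± 0.159 CPM per kb (SD, n = 3), and was detected in all 3 libraries. Its level lay below the median detected gene by 1.37 ± 0.12 (SE) on the log2 scale in limma's one-sample test (Benjamini-Hochberg adjusted p = 7.69e-06). SLFNL1-AS1 overlaps 30.1% of its exon bases on the opposite strand, so part of these reads could belong to that antisense gene. In that test, run on 13527 detected genes of known exon length, 45.3% of genes were called above the median gene and 45.1% below it, so a single call either way is common.

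Some genes on both sides of the cluster were transcribed. Of 26 protein-coding neighbours within 500 kb, 10 were detected, whereas 69.8% of all protein-coding genes were detected. Of these 10, 6 lay above the median gene and 4 below (45.3% and 45.1% of all genes tested). Without replicate 1, 6 neighbours lay above and 6 below. When only genes of at least 1 CPM were kept, 4 lay above and 4 below. With all libraries and the main filter, 5 of 10 neighbours before SLFN5 were detected, and 5 of 16 after SLFN14. AP2B1, which encodes a clathrin adaptor subunit and starts 19.9 kb after SLFN14, had 9312, 16236 and 8980 counts, or 49.6 ± 0.390 CPM per kb. It lay above the median gene by 3.16 ± 0.07 (SE) on the log2 scale (limma, adjusted p = 2.3e-09).

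On the SLFN5 side low genes extended farther out. SLC35G3, 48.5 kb away, had 9, 21 and 14 counts, and UNC45B, a myosin chaperone gene of muscle at 53.7 kb, had 2, 0 and 2. The closest detected gene there was NLE1, a ribosome assembly gene 101 kb away, with 1603, 2510 and 1600 counts (11.6 ± 0.759 CPM per kb). Beyond it RAD51D, a homologous recombination gene, stood at 2.08 ± 0.178 CPM per kb, RFFL, a ubiquitin ligase gene, at 0.608 ± 0.0972, LIG3, a DNA ligase gene, at 7.23 ± 0.519 and ZNF830 at 7.30 ± 0.845. RFFL shares 44.1% of its exon bases with LIG3 on the opposite strand, so these levels depend on the strand setting. The calls of LIG3 and ZNF830 were lost when only genes of at least 1 CPM were kept (adjusted p = 0.051 and 0.135), and without division by length ZNF830 lay below the median gene (log2 distance -0.82). FNDC8 (9, 35 and 15 counts) and CCT6B (3, 11 and 9 counts) were not detected, and the readthrough gene RAD51L3-RFFL was at 0.

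Further out on the SLFN14 side, TAF15, an RNA-binding protein gene, stood at 26.1 ± 2.30 CPM per kb, RASL10B at 20.4 ± 3.32 and RDM1 at 3.18 ± 0.960. GAS2L2 (0, 9 and 0 counts) and C17orf50 (5, 3 and 6 counts) were not detected. The chemokine genes CCL5, CCL14, CCL15, CCL16 and CCL23, the readthrough gene CCL15-CCL14, and MMP28, HEATR9 and LYZL6 had no count in any library. In all, 10 of the 26 neighbours were at 0, against 3 of the 6 Schlafen genes and 10.3% of all protein-coding genes. Of these 10, 9 lay after SLFN14. The other, before SLFN5, was the readthrough gene RAD51L3-RFFL, whose exons overlap those of RFFL (53.85% of its exon bases) and RAD51D (45.2%) on the same strand, so that its reads could hardly be assigned to it. The same limit holds for CCL15-CCL14, after SLFN14, which overlaps CCL14 (50.62% of its exon bases) and CCL15 (49.38%) on the same strand. No test of a difference between members and neighbours was made.

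**Figure D2:**
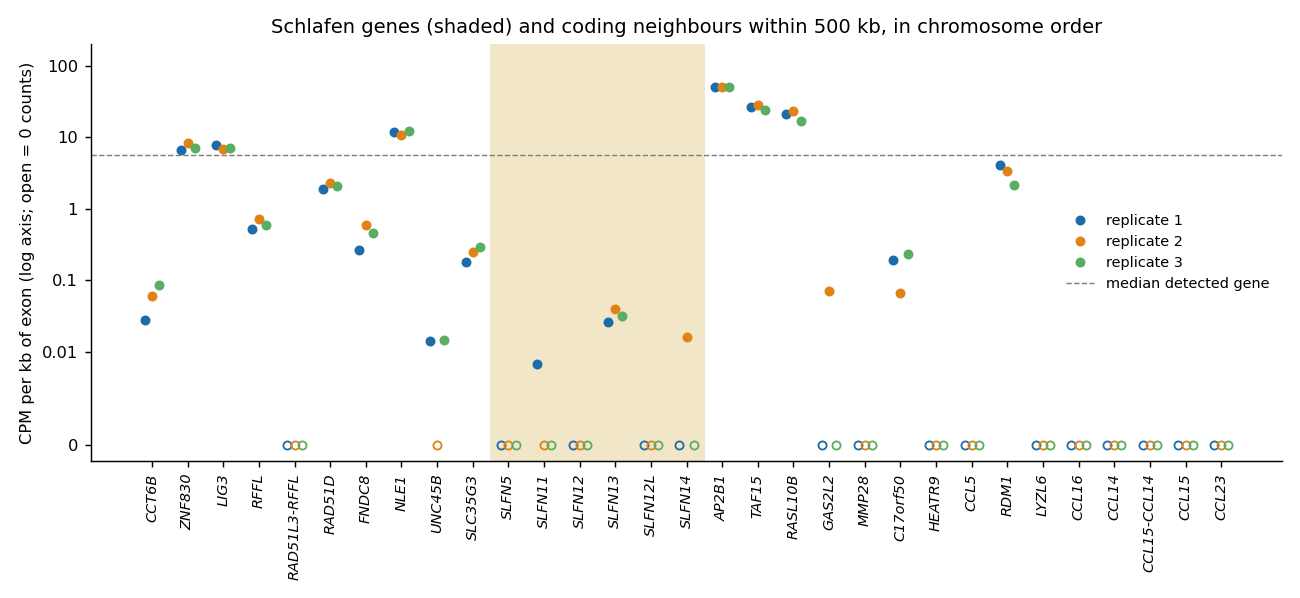
Levels in CPM per kb of exon (log axis) of the 6 Schlafen genes (shaded) and 25 of the 26 coding neighbours in chromosome order, with 1 point per library, open points at 0 counts and a dashed line at the median detected gene. NLE1 before the cluster and AP2B1 after it lie above the line at 11.6 and 49.6 CPM per kb, while every Schlafen gene lies below 0.1.

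The promoters of 3 of the 6 members could be matched in RefSeq (GRCh38.p14, 250 bases before to 50 after each start): SLFN11, SLFN12 and SLFN12L. They are shown because promoter methylation acts on CG pairs, and the capitals mark each CG. Only the bases before both the RefSeq start and the outermost annotated start are printed, at chr17:35373702-35373871 for SLFN11, chr17:35433284-35433424 for SLFN12 and chr17:35537862-35537928 for SLFN12L, on the minus strand and 5′ to 3′. Neither methylation nor histone marks were measured.
SLFN11: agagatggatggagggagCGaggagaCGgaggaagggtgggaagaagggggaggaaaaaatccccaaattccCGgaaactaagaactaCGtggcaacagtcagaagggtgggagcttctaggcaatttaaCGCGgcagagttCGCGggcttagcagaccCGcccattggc
SLFN12: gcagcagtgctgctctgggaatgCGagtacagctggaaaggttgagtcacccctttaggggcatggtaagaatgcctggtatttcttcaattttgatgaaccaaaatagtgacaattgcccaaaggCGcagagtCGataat
SLFN12L: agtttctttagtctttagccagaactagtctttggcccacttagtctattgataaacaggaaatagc

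In the full 300-base windows SLFN11 held 18 CG pairs, SLFN12 held 13 and SLFN12L held 2, against a median of 14 over 35116 promoters, of which 96% hold at least 1. The SLFN11 window had more CG pairs than 55.5% of all promoters, the SLFN12 window more than 48.3% and the SLFN12L window more than 11%. SLFN11 and SLFN12 were thus near the median promoter in CG pairs, and SLFN12L was below it. GGAA, the core that ETS factors bind, counted on both strands, occurred 7 times in SLFN11, 5 times in SLFN12 and 4 times in SLFN12L, with a median of 3 and a match in 95.5% of promoters. The core of the interferon-stimulated response element (GAAA, any 2 bases, GAAA) was matched once in SLFN12L and not in the other two, on either strand, and 3.57% of promoters hold it. TTCNNNGAA, the interferon-gamma-activated element, which reads the same on both strands, was matched once in SLFN11, in 2 places in SLFN12L and not in SLFN12, and 7.66% of promoters hold it. All 3 motifs contain GAA and can overlap. A match describes letters only.

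Among genes that background knowledge ties to low SLFN11, EZH2 and most other Polycomb genes lay above the median detected gene, some of them narrowly. Any link of their levels to SLFN11 was not tested. EZH2, the enzyme of Polycomb repressive complex 2 that methylates histone H3, had 4043, 5967 and 4748 counts, or 36.9 ± 6.52 CPM per kb. It lay above the median gene by 2.72 ± 0.09 (SE) on the log2 scale (limma, adjusted p = 3.25e-08). JARID2, which guides the complex to its sites, stood at 44.2 ± 2.85 CPM per kb and the histone-binding subunit gene RBBP4 at 38.1 ± 0.490. EED, another core subunit, was the lowest at 3.90 ± 0.287. Of 11 genes of the complex, 10 lay above the median gene and 1 below (45.3% and 45.1% of all genes tested). With the filter of 1 CPM, 8 lay above and 1 below. In the main fit the median distance was 1.95 on the log2 scale, against 0 over all genes tested by construction. The gene below, EED, lay above the median with the longest transcript as length (0.38) and when genes with any count were kept (0.42), so its side is uncertain.

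Among 10 genes that write, copy, erase or read DNA methylation, 6 lay above and 2 below the median gene, with a median of 0.42. As 45.3% of all genes tested were called above, this list was not far from that share. DNMT1, the maintenance methyltransferase gene, had 18198, 34418 and 17877 counts, or 77.7 ± 3.95 CPM per kb. UHRF1, which brings DNMT1 to replicated DNA, stood at 32.1 ± 2.39 and the de novo methyltransferase gene DNMT3B at 9.16 ± 0.914. The lowest was TET2, an enzyme gene of methylation removal, at 1.83 ± 0.556. Of 6 histone deacetylase and LSD1 complex genes, 5 lay above and 1 below (45.3% and 45.1% of all genes tested), with a median of 1.40. KDM1A, which encodes the demethylase LSD1, reached 85.8 ± 6.27 CPM per kb, HDAC1 31 ± 2 and HDAC2 18.6 ± 1.04, and HDAC8 was lowest at 1.28 ± 0.0925. Without division by exon length neither TET2 nor HDAC8 was distinguished from the median gene.

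ETS factors, which can activate SLFN11 transcription, were mixed. Of 8 genes, 6 were detected (69.8% of all protein-coding genes were). Of these 6, 3 lay above the median gene and 3 below (45.3% and 45.1% of all genes tested), with a median of -0.09. These counts were near those shares. GABPA stood at 16.9 ± 4.83 CPM per kb, ELF4 at 7.97 ± 1.03 and ETS1 at 6.76 ± 0.204, and ERG was the lowest detected at 0.0892 ± 0.0238. The call of ETS1 was lost with a filter of 1 CPM (adjusted p = 0.338) and that of ELF4 with the longest transcript as length (0.3). The undetected members, named after their values were seen, were FLI1, with 0 counts in all 3 libraries, and the myeloid factor SPI1, with 1, 2 and 3.

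**Figure D3:**
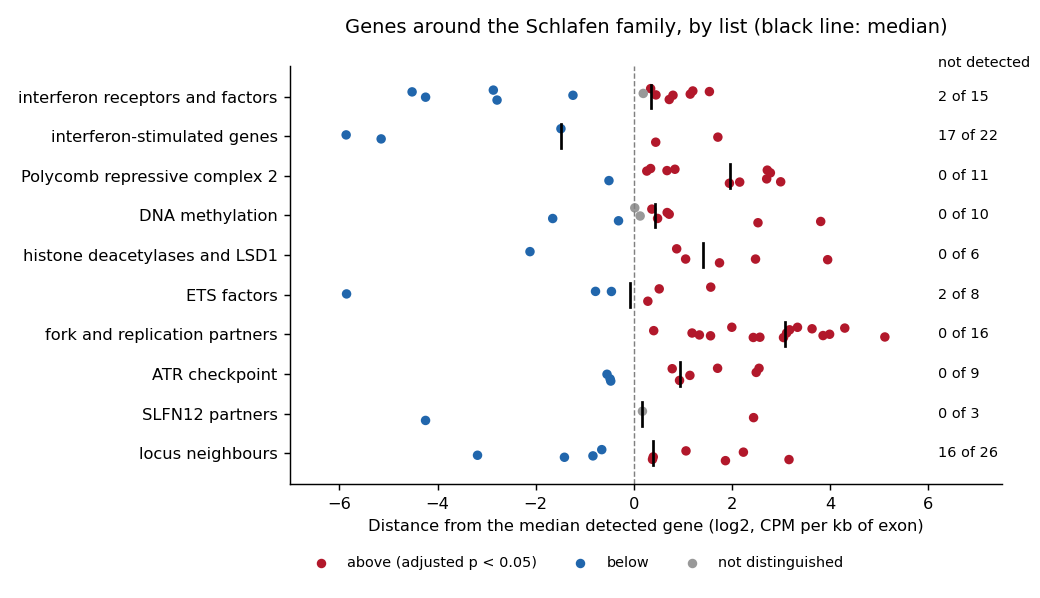
Distance of each detected gene from the median detected gene (horizontal axis, log2 of CPM per kb of exon) for 10 gene lists around the Schlafen family, coloured by limma's call, with black lines at list medians and the number of undetected genes at the right. All replication fork genes lie to the right (median 3.08), though RPA3 lay to the left without division by length. Of 22 interferon-stimulated genes, 17 were not detected, whereas 69.8% of all protein-coding genes were detected.

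Interferon is a well known inducer of Schlafen genes. Most genes that receive and carry the signal were expressed, whereas most of its targets were not detected. Of 15 receptor, kinase and factor genes, 13 were detected (69.8% of all protein-coding genes were). Of these 13, 7 lay above the median gene and 5 below (45.3% and 45.1% of all genes tested), with a median of 0.34. The kinase genes TYK2 (16.2 ± 1.27 CPM per kb) and JAK1 (12.8 ± 0.558) were highest. IRF9, the DNA-binding subunit of the interferon-stimulated factor complex, was the lowest detected, with 13, 57 and 21 counts (0.240 ± 0.107 CPM per kb). It lay below the median gene by 4.52 ± 0.27 (SE) on the log2 scale (log2 distance -4.52, limma, adjusted p = 6.70e-07). IRF7 had no count in any library and IRF8 had 0, 6 and 0; both were named after their values were seen.

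Of 22 interferon-stimulated genes, 17 were not detected, whereas 69.8% of all protein-coding genes were detected. Of the 5 detected genes, 3 lay below and 2 above the median gene (45.1% and 45.3% of all genes tested), with a median of -1.49. The membrane restriction factor gene BST2 had 566, 953 and 393 counts, or 18.3 ± 3.18 CPM per kb. IFI6 stood at 7.49 ± 0.541, IFI35 at 1.97 ± 0.336 and ISG20, the lowest detected, at 0.0934 ± 0.0474. Without division by exon length BST2 (-0.51) and IFI6 (-2.15), whose exons span 1.12 and 0.865 kb, lay below the median gene on the log2 scale. The call of IFI6 was also lost with the longest transcript as length (adjusted p = 0.837) and with a filter of 1 CPM (0.109). The 14 undetected genes with any reads had 1 to 42 counts in all, and 3 genes were at 0. SLFN13, with 29 counts, had as many counts as or more than 14 of the 22 genes. These counts were not divided by exon length. Per kb of exon SLFN13, whose exons span 9.33 kb, lay below some of those 14 genes. The other Schlafen genes had fewer counts than SLFN13.

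**Figure D4:**
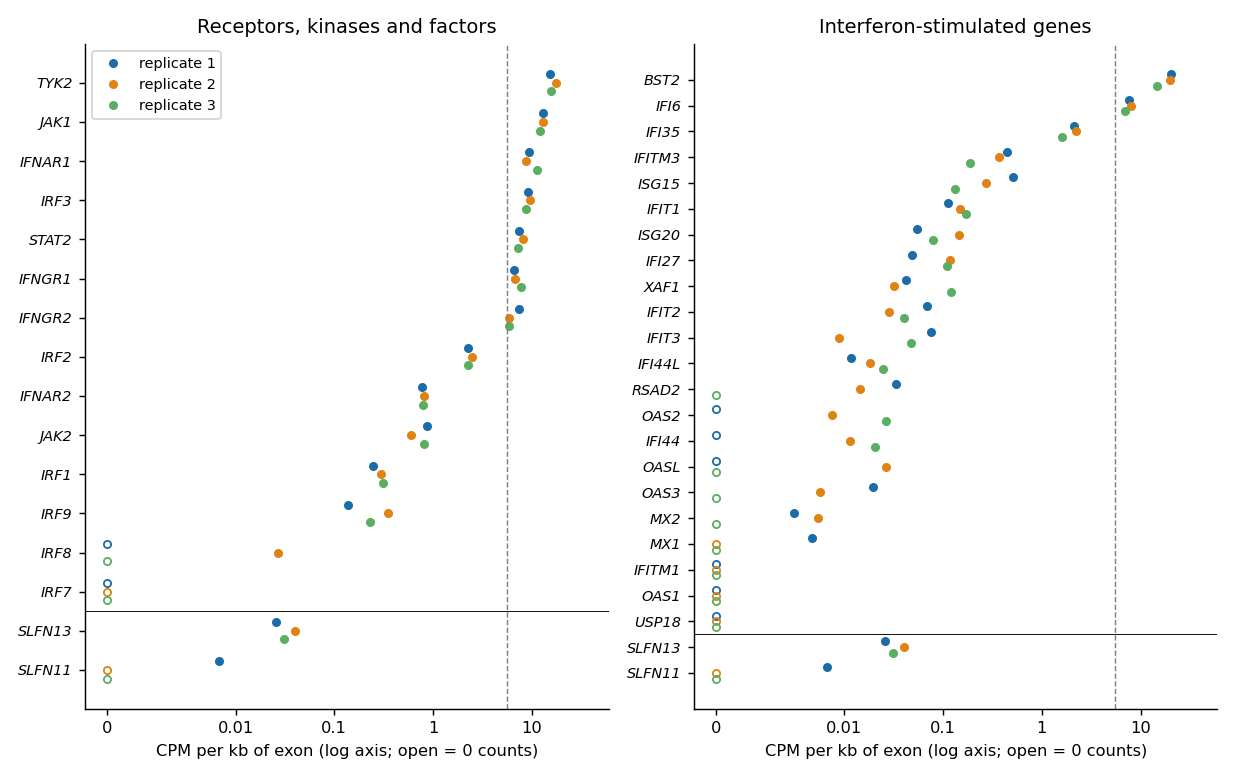
CPM per kb of exon (log axis, open points at 0 counts, 1 point per library, dashed line at the median detected gene) of interferon receptor, kinase and factor genes reported here (left) and interferon-stimulated genes (right), with SLFN13 and SLFN11 below the rule. TYK2 leads on the left at a mean of 16.2 and BST2 on the right at a mean of 18.3, and SLFN13 at a mean of 0.0324 lies among the low interferon-stimulated genes.

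The machinery on which SLFN11 acts was highly expressed. All 16 replication fork and licensing genes lay above the median gene per kb of exon (15 of them without division by length or with the filter of 1 CPM), with a median of 3.08. Of all genes tested, 45.3% were called above. PCNA, the polymerase clamp, stood at 192 ± 14.5 CPM per kb, the helicase subunit gene MCM7 at 109 ± 7.58 and DHX9, a helicase gene, at 89.0 ± 15.6. RPA3, the small subunit of RPA, was lowest at 7.33 ± 0.103 CPM per kb and lay below the median gene when length was not divided out (-0.29); with the filter of 1 CPM it was not distinguished from it (log2 distance 0.2, limma, adjusted p = 0.0604). Cells without SLFN11 depend on the ATR checkpoint to survive replication stress, but such a dependence was not tested here. Of 9 genes of that checkpoint, 6 lay above the median and 3 below (45.3% and 45.1% of all genes tested), with a median distance of 0.93. CLSPN (32.7 ± 4.68 CPM per kb), TIMELESS (31.3 ± 2.74) and TOPBP1 (18.2 ± 1.96) were highest. The 3 below were ATRIP, the partner of ATR, at 3.99 ± 0.0870 CPM per kb, the kinase gene ATR at 4.02 ± 1.54 and ETAA1, an ATR activator gene, at 4.11 ± 1.30. Their log2 distances were -0.47, -0.55 and -0.49, so the order of the 3 depended on the scale. ATR and ETAA1 were named after their values were seen. All 3 changed side when genes with any count were kept, and ATR was called above the median gene without division by length (log2 distance 0.71, limma, adjusted p = 0.00868). With the longest transcript as length ATR was not distinguished from it (adjusted p = 0.0831), nor was ETAA1 without replicate 1 (adjusted p = 0.0567) or without replicate 2 (adjusted p = 0.0559). Without replicate 2 the log2 distance of ATR was only -0.19 (limma, adjusted p = 0.0483).

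SLFN12 acts together with PDE3A, a phosphodiesterase that certain small molecules join to it. SLFN12 itself was at 0, while PDE3A was detected at a low level. PDE3A had 41, 163 and 52 counts, or 0.303 ± 0.134 CPM per kb, and lay below the median gene (log2 distance -4.25 ± 0.24 SE, limma, adjusted p = 4.69e-07). The paralog PDE3B, at 6.30 ± 0.832, was not distinguished from the median gene (adjusted p = 0.0898), but was called above it without replicate 2 (adjusted p = 0.0033).

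The labelled cell type was checked with marker genes. All 9 small cell lung cancer markers were detected, 7 above and 1 below the median gene, with a summed level of 1430 to 1440 CPM over the libraries. Schlafen genes are known from leukocytes, and 2 of 8 leukocyte markers were detected, CD3E among them, both below the median gene, with a summed level of 9.94 to 16.5 CPM; the pan-leukocyte gene PTPRC had 6, 10 and 7 counts. Of 4 endothelial, 5 fibroblast and 6 platelet and erythroid markers, 2, 1 and 0 were detected, with summed levels of 1.09 to 1.79, 0.584 to 1.21 and 0 to 0.25 CPM, and GP9 was at 0. Their part in the SLFN13 and SLFN14 counts was not tested.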

How the data were processed

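The authors deposited raw read counts by gene symbol in 1 table with a column for each of 3 libraries. The submitters' processing notes name STAR 2.6.1b and hg38; the counter, annotation and strandedness are not given in the sources that were read. Of 27587 names, 13 had been turned into dates (0.0665%, 0.0707% and 0.0736% of counts) and were left out. The members and gene lists were chosen with earlier results of these data known. CPM used edgeR 4.0.16 TMM effective library sizes. Exon lengths (union of exons) and positions came from GENCODE release 29 on GRCh38, which covered 92.6% of 14612 detected genes; 19590 names matched directly, 481 by an older symbol and 7503 not at all. A detected gene had at least 10 counts in every library.

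Each detected gene was compared with the median detected gene of its library by limma 3.58.1 (R 4.3.3), a two-sided one-sample moderated test on log2 CPM per kb with a prior count of 2, Benjamini-Hochberg adjusted over all genes tested, threshold 0.05. With 1 group no contrast existed for edgeR's quasi-likelihood or DESeq2's test. No member was detected, so none entered that test or the chi-square test of spread, and members have exact Poisson or Clopper-Pearson 95% intervals; intervals and floors (3 counts for a count of 0) cover counting error only. The chi-square test called 68.7% of detected genes as spread beyond counting error. On simulated data limma's test called 100% of 200 genes placed 1 log2 unit above the median and 5.5% of 200 placed at it, among 13677 genes.

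Named were all members, all neighbours, each list's 3 highest and lowest detected genes and every gene of lists of 3 or fewer; genes most like a detected member were to be named too, and there was none. Some genes that this rule names entered the fits and counts and are not reported here. Alternatives were each library left out in turn, a filter of 1 CPM in every library or of 1 count in any, scaling by DESeq2 1.42.0 size factors or by totals, a prior count of 0.5, no division by length, the longest transcript as length, protein-coding genes as reference, a threshold of 0.01 for spread and words of 31 bases. Protein identity between members was not computed.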

Additional observations from a re-analysis of the deposited data

How the results depend on the processing

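No Schlafen gene passed the detection filter, so none entered the level test, when leaving out any library or under the filter of 1 CPM, either other scaling, a prior count of 0.5, other lengths or the protein-coding reference. Keeping every gene with at least 1 count let 3 members in (SLFN11, SLFN13 and SLFN14), and limma called all 3 below the median gene, as it did 47% of the 17681 genes then tested; their fitted distances depend on the prior count. The same filter gave 17 interferon-stimulated, 1 DNA methylation, 0 Polycomb, 0 ATR checkpoint and 8 neighbour genes below, and 2 SLFN12 partners above; it moved EED (0.42), ATRIP (0.45), ATR (0.38), ETAA1 (0.44) and RDM1 (0.09) to above the median. With at least 1 CPM, 1 interferon-stimulated gene lay above and 1 below, and PDE3B stood at -0.03. Without division by length, 0 interferon-stimulated genes lay above and 5 below, 0 Polycomb, 0 DNA methylation, 0 deacetylase, 1 replication fork and 1 ATR checkpoint gene lay below, and 2 SLFN12 partners above; BST2 (-0.51), IFI6 (-2.15), RPA3 (-0.29), ZNF830 (-0.82), TET2 (0.01), HDAC8 (0.02), ATR (0.71) and ETAA1 (0.04) changed side. With the longest transcript as length, 1 interferon-stimulated gene and 2 SLFN12 partners lay above and 0 Polycomb genes below, and EED (0.38) and ZNF830 (-0.06) changed side. Over the fits that each left out 1 library, DNA methylation genes below ranged from 1 to 2, SLFN12 partners above from 1 to 2, and interferon-stimulated genes below from 3 to 5. Neighbours below ranged from 4 to 6 in those fits. With words of 31 bases the share found in 1 gene was 98.3% for SLFN5, 85.7% for SLFN11, 95.3% for SLFN12, 82% for SLFN12L, 88.6% for SLFN13 and 89.8% for SLFN14. Other than the word lengths and the filters, which change what is counted, the cause of these shifts was not tested. No paired analysis was possible because the libraries form 1 group. Depth limits the members at 0 to the bounds given.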
